A study of Mus musculus with 12 samples.

Results

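The podocyte and slit diaphragm genes described here are Nphs1, Cd2ap, Synpo, Nes, Podxl, Ptpro, Wt1 and Tcf21, 8 genes chosen by name from the 57490 of the count table, and all 8 passed the filter on low counts. Poly(A) RNA from the kidneys of 12 male mice aged 13 weeks, 4 in each of 3 groups, was sequenced to follow diabetic kidney disease and its treatment with the herbal decoction YHY. Ctrl animals were db/m mice on the BKS background, which keep a working copy of the leptin receptor gene, with blood glucose below 11.1 mmol/L, and were gavaged with purified water. Model animals were db/db mice of that background, in which both copies of the receptor gene are mutant, with blood glucose of at least 16.7 mmol/L, gavaged with purified water. YHY animals were db/db mice selected by the same glucose limit and gavaged daily for 4 weeks with YHY at 6.24 g/mL, 50 µL for each 10 g of mouse. The tissue is labelled kidney and described for the series as renal cortex, in which podocytes are a small part of all cells.

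Podocytes are the epithelial cells that wrap the capillaries of the glomerulus, and the slit diaphragm bridges their interlocking foot processes and holds back plasma proteins. Nephrin, made from Nphs1, spans the slit and is tied to the actin cytoskeleton through adaptors such as CD2AP, and podocyte loss and flattened foot processes accompany diabetic kidney disease. Some of the genes are also active elsewhere, Cd2ap in many cell types, Podxl and Nes in endothelium and Tcf21 in stromal cells.

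Counts per library ranged from 29632718 to 33276634 in Ctrl, from 24415658 to 29784346 in Model and from 25149764 to 29698342 in YHY. Transcripts of the mitochondrial genome made up 19.5% ± 2.12 of them in Ctrl mice, 52.2% ± 7.68 in Model mice and 56.8% ± 5.21 in YHY mice (SD, n = 4). Without these transcripts the 8 genes had the same numbers of calls in each comparison, and their median log2 fold change was 0.631 in Model against Ctrl beside 0.637 with them. Any other part of this share in the results below was not tested. Levels are given as CPM, counts scaled to a common library total with edgeR's TMM factors, and scaling by library size alone was tried as well. A gene was called at an adjusted P under 0.05 in edgeR's quasi-likelihood test, with Benjamini-Hochberg adjustment over 17431 genes. An exact permutation test on CPM, two-sided and unadjusted, stands beside it, and its smallest possible P is 0.0286.

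Levels of different genes were compared as FPKM, which divides by the deposited gene length. Mean FPKM over the 12 mice was 9.49 for Podxl, 7.58 for Tcf21, 5.27 for Cd2ap, 2.75 for Synpo, 2.55 for Nes, 2.07 for Nphs1, 1.31 for Ptpro and 0.877 for Wt1. Among Ctrl mice Podxl led at 12.5 ± 2.38 FPKM, while Tcf21 at 6.45 ± 2.90 and Cd2ap at 5.48 ± 0.475 FPKM did not differ beyond their spread, nor did Nphs1 at 0.807 ± 0.158 and Ptpro at 0.964 ± 0.217 FPKM (SD, n = 4). Among YHY mice the mean of Tcf21, 7.11 ± 2.77 FPKM, lay above that of Podxl, 6.24 ± 1.32 FPKM, within their spread (SD, n = 4). These ranks rest on the deposited lengths, 5488 bases for Podxl, 2349 for Tcf21 and 15864 for Cd2ap. In CPM, mean Cd2ap lay above mean Podxl in Ctrl (86.9 against 68.5), Model (75.0 against 53.5) and YHY (88.8 against 34.3). Whether these lengths match the transcripts sequenced was not tested. Lmx1b, a further podocyte marker, was detected in every mouse, at a mean of 0.374 FPKM and with as few as 6 counts.

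Promoters are shown for the called genes with the smallest adjusted P in Model against Ctrl, Nphs1 and Nes, and for Cd2ap, whose promoter held a searched motif. RefSeq promoters of mouse build GRCm38.p6, 250 bases before to 50 after the gene start, were matched for 5 of the 8 genes (Nphs1, Ptpro, Cd2ap, Tcf21 and Nes). Each runs 5′ to 3′ on the strand of its gene, with the motif in capitals.
Nphs1, chr7:30459808-30460107, plus strand: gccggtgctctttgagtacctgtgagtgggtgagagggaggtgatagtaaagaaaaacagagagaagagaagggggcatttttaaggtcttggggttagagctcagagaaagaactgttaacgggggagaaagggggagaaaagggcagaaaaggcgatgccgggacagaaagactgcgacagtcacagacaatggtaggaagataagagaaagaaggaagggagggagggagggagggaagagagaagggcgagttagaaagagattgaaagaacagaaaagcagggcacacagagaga
Nes, chr3:87970843-87971142, plus strand: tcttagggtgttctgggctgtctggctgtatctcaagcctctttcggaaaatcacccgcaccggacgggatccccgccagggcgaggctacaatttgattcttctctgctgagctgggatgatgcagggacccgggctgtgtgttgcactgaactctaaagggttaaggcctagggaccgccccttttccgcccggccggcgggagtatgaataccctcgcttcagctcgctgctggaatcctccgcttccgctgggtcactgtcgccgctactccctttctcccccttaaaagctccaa
Cd2ap, chr17:42876375-42876674, minus strand: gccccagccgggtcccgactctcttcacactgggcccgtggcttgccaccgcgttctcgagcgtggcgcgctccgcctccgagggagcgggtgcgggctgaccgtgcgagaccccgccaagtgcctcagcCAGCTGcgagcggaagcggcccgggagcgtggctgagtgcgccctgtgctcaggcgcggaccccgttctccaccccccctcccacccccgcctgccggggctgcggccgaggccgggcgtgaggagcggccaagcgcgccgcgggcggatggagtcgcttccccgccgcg
The E-box CAGCTG, bound by basic helix-loop-helix factors such as TCF21, was present on either strand in 16.3% of 32851 promoters and in 1 of the 5. The zinc finger motif GCGGGGGCG of EGR1 and WT1 was in 2.91% of all promoters and the homeodomain core TAATTA in 5.29%, and each was in 0 of the 5. A match describes these letters only, and no binding was measured.

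Nphs1 encodes nephrin (ENSMUSG00000006649, GRCm39 chromosome 7, 30157740 to 30186648). The 4 Ctrl mice, in the order of their numbers, had 4.03, 5.80, 6.47 and 5.05 CPM, the Model mice 23.2, 19.6, 18.4 and 16.2 CPM and the YHY mice 9.43, 21.6, 13.1 and 21.8 CPM. All 8 db/db mice lay above all Ctrl mice, and YHY 1 and YHY 3 lay below the Model mice. Relative to Ctrl, the log2 fold change was 1.86 in Model (SE 0.25, adjusted P = 5.44e-05, exact permutation P = 0.0286) and 1.62 in YHY (SE 0.25, adjusted P = 6.54e-05). In bulk kidney RNA, a different number of podocytes and a different amount of RNA per podocyte cannot be told apart. Between YHY and Model the log2 fold change was -0.24 (SE 0.24, adjusted P = 0.565). Rps12-ps4, with 31 to 115 counts, and Nphs1os, with 0 counts in every mouse, overlap Nphs1 on the opposite strand, and as the use of strand in counting is not stated, reads of such partners cannot be told apart from those of Nphs1.

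Cd2ap encodes an adaptor that links nephrin to actin (ENSMUSG00000061665, GRCm39 chromosome 17, 43103842 to 43187556). Ctrl mice had 93.7, 78.1, 83.1 and 92.6 CPM, Model mice 79.1, 74.0, 73.0 and 73.9 CPM and YHY mice 101.5, 77.2, 94.7 and 81.7 CPM. Each pair of groups overlapped, although 3 Model mice lay below every Ctrl mouse. The log2 fold change was -0.21 for Model against Ctrl (SE 0.13, adjusted P = 0.221), 0.24 for YHY against Model (SE 0.13, adjusted P = 0.242) and 0.031 for YHY against Ctrl (adjusted P = 0.865). With library size alone Cd2ap was called lower in Model than in Ctrl, at -0.65 (adjusted P = 0.0231), and the sign in YHY against Ctrl turned, to -0.38 (adjusted P = 0.155).

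**Figure D1:**
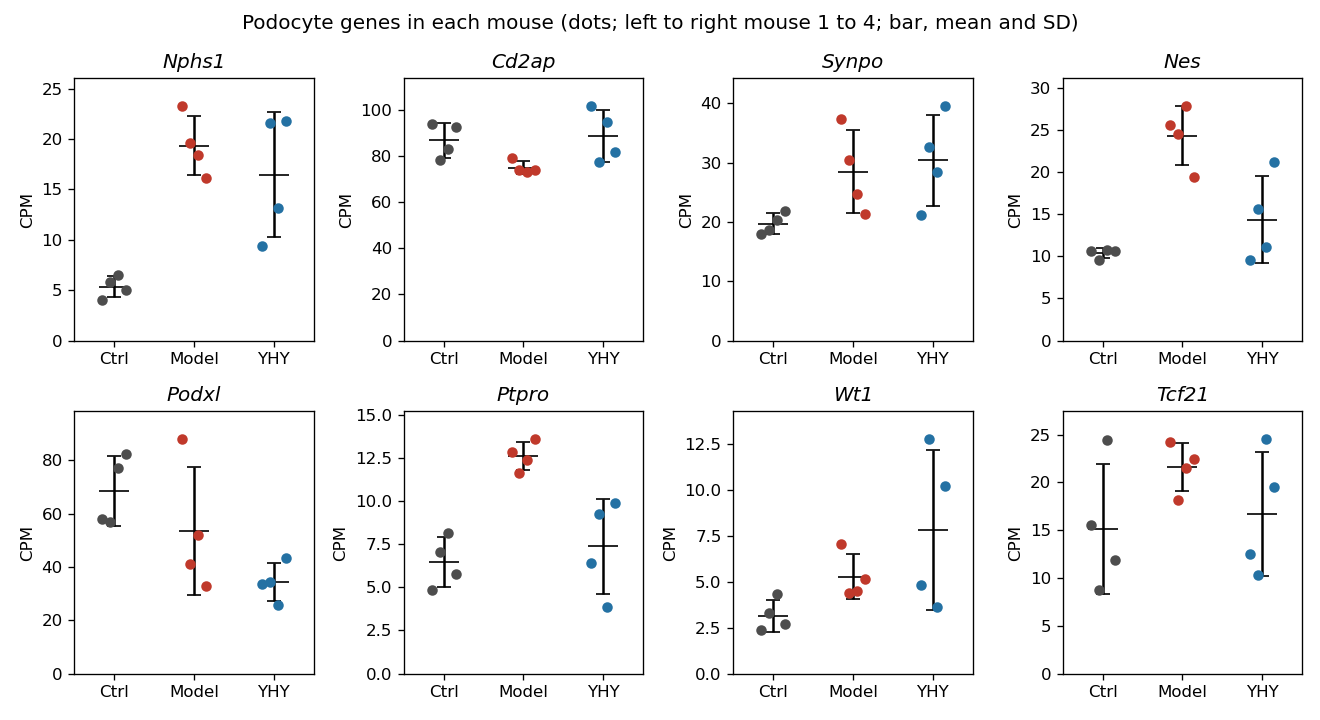
CPM of each podocyte gene in every mouse (dots, mice 1 to 4 from left to right) with the group mean and SD (bar). Nphs1, Nes, Ptpro and Wt1 are higher in all 4 Model mice than in any Ctrl mouse, and Podxl is lower in all 4 YHY mice than in any Ctrl mouse.

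Synpo encodes synaptopodin, an actin-associated protein of foot processes (ENSMUSG00000043079). Ctrl mice had 17.9, 18.7, 20.4 and 21.8 CPM, Model mice 37.3, 30.4, 24.8 and 21.3 CPM and YHY mice 21.1, 32.6, 28.4 and 39.4 CPM. In both db/db groups 3 of the 4 mice lay above every Ctrl mouse. Relative to Ctrl, the log2 fold change was 0.53 in Model (SE 0.20, adjusted P = 0.0435, exact permutation P = 0.0571) and 0.62 in YHY (SE 0.20, adjusted P = 0.0149, exact permutation P = 0.0571), and between YHY and Model it was 0.093 (adjusted P = 0.809). Both calls rested on the scaling, with 0.11 in Model (adjusted P = 0.732) and 0.17 in YHY (adjusted P = 0.577) by library size alone. Besides leaving out 1 mouse, 10 alternatives were fitted, and 7 kept the call in Model. The call in Model was lost without any 1 of the 4 Ctrl mice, Model 1, Model 2, Model 3 or YHY 3, with values of 0.31 to 0.65 and adjusted P of 0.0246 to 0.196 over all mice left out in turn. The call in YHY was lost without Ctrl 1 (adjusted P = 0.0669) or YHY 4 (adjusted P = 0.0559).

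Nes encodes nestin, an intermediate filament protein (ENSMUSG00000004891, GRCm39 chromosome 3, 87878385 to 87887758). Ctrl mice had 10.6, 9.52, 10.8 and 10.6 CPM, Model mice 25.5, 24.5, 27.8 and 19.5 CPM and YHY mice 9.58, 15.6, 11.1 and 21.2 CPM. All Model mice lay above all Ctrl mice, and 3 of the 4 YHY mice lay below all Model mice. Nes was higher in Model than in Ctrl, with a log2 fold change of 1.23 (SE 0.21, adjusted P = 3.56e-04, exact permutation P = 0.0286). It was lower in YHY than in Model, at -0.76 (SE 0.21, adjusted P = 0.0266, exact permutation P = 0.0571), a call that was lost with only the 8 mice compared (adjusted P = 0.0663) and without Model 2, Model 3, YHY 1 or YHY 3 (adjusted P up to 0.0866). In YHY against Ctrl the value was 0.47 (SE 0.21, adjusted P = 0.0764), and it was called at 0.62 without YHY 1 (adjusted P = 0.0184), at 0.57 without YHY 3 (adjusted P = 0.0442) and at 0.58 with upper-quartile scaling (adjusted P = 0.0237), but was -0.0032 with library size alone.

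Podxl encodes podocalyxin, the main sialoprotein of the podocyte surface (ENSMUSG00000025608, GRCm39 chromosome 6, 31496423 to 31540916). Ctrl mice had 57.8, 56.9, 77.0 and 82.3 CPM, Model mice 87.8, 41.3, 51.9 and 32.9 CPM and YHY mice 33.5, 34.4, 25.8 and 43.4 CPM. Model 1 was the highest of the 12 mice, and the other Model mice and all YHY mice lay below every Ctrl mouse. Podxl was lower in YHY than in Ctrl, with a log2 fold change of -0.999 (SE 0.26, adjusted P = 0.00398, exact permutation P = 0.0286). Model against Ctrl gave -0.36 (SE 0.25, adjusted P = 0.283, exact permutation P = 0.314), and Podxl was called lower at -0.76 without Model 1 (adjusted P = 0.00775) and at -0.76 with library size alone (adjusted P = 0.0464). YHY against Model gave -0.64 (SE 0.25, adjusted P = 0.107) and was called at -0.82 without Model 4 (adjusted P = 0.0484).

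Ptpro encodes a receptor tyrosine phosphatase of the podocyte surface (ENSMUSG00000030223, GRCm39 chromosome 6, 137229317 to 137440231). Ctrl mice had 4.85, 7.08, 8.18 and 5.81 CPM, Model mice 12.9, 11.6, 12.4 and 13.6 CPM and YHY mice 6.45, 9.29, 3.87 and 9.92 CPM. The Model mice lay above all mice of both other groups. The log2 fold change was 0.96 for Model against Ctrl (SE 0.26, adjusted P = 0.00753, exact permutation P = 0.0286), which was 0.55 and not called with library size alone (adjusted P = 0.0890). YHY against Model gave -0.78 (SE 0.26, adjusted P = 0.0557, exact permutation P = 0.0286), just short of a call, and Ptpro was called lower there by DESeq2 (adjusted P = 0.0277) and without Ctrl 1, YHY 2 or YHY 4 (adjusted P from 0.0240). YHY against Ctrl gave 0.19 (adjusted P = 0.573), which turned to -0.28 with library size alone. Gm44258 overlaps Ptpro on the same strand and had 0 counts in every mouse.

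Wt1 encodes a zinc finger transcription factor that maintains podocytes (ENSMUSG00000016458, GRCm39 chromosome 2, 104956874 to 105003961). Ctrl mice had 2.35, 3.28, 4.33 and 2.69 CPM, Model mice 7.05, 4.38, 4.52 and 5.17 CPM and YHY mice 4.81, 12.8, 3.61 and 10.2 CPM. All Model mice lay above all Ctrl mice, by little for Model 2, and YHY 2 and YHY 4 lay above all other mice. Wt1 was higher in YHY than in Ctrl, with a log2 fold change of 1.31 (SE 0.36, adjusted P = 0.00619, exact permutation P = 0.0571), which was 0.79 and not called with library size alone (adjusted P = 0.0581). Model against Ctrl gave 0.74 (SE 0.35, adjusted P = 0.111, exact permutation P = 0.0286) and was called with only the 8 mice compared (adjusted P = 0.0323). YHY against Model gave 0.56 (SE 0.35, adjusted P = 0.312).

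Tcf21 encodes a basic helix-loop-helix factor of podocytes and stroma (ENSMUSG00000045680, GRCm39 chromosome 10, 22693180 to 22696073). Ctrl mice had 15.5, 8.71, 24.5 and 11.9 CPM, Model mice 24.2, 18.1, 21.6 and 22.5 CPM and YHY mice 12.5, 10.3, 24.5 and 19.5 CPM. The groups overlapped, with Ctrl 3 and YHY 3 the highest. The log2 fold change was 0.51 for Model against Ctrl (SE 0.29, adjusted P = 0.180), and 0.79 and called without Ctrl 3 (adjusted P = 0.0424). It was -0.37 for YHY against Model (adjusted P = 0.438) and 0.14 for YHY against Ctrl (adjusted P = 0.713), which turned to -0.26 with library size alone. Gm10824 overlaps Tcf21 on the opposite strand and had 2 to 34 counts.

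In Model against Ctrl, 4 of the 8 genes were called higher (Nphs1, Synpo, Ptpro and Nes) and 0 lower, beside 19.6% of all genes tested called higher and 18.5% lower. At an unadjusted P under 0.05 edgeR also gave 4 higher and 0 lower, beside 24.5% and 22.4% of all genes, and DESeq2 gave these numbers at an adjusted P under 0.05, beside 18% and 16.4%. The groups did not overlap for 4 genes, all higher in Model (Nphs1, Ptpro, Nes and Wt1), beside 19.9% of all genes higher and 20.3% lower in this way. The median log2 fold change was 0.64 for the 8 genes and 0.038 for all genes. Library size alone moved the median of all genes to -0.39 and that of the 8 to 0.23, left Nphs1 (1.44) and Nes (0.79) called higher and called Podxl and Cd2ap lower. The share of calls that were higher was 51.5% with TMM and 21.4% with library size alone. Upper-quartile scaling moved the median of all genes to 0.14.

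In YHY against Model, edgeR called 1 of the 8 genes lower (Nes) and 0 higher, beside 7.62% and 5.63% of all genes. At an unadjusted P under 0.05, 3 were lower (Nes, Ptpro and Podxl) and 0 higher, beside 14.7% and 13.9% of all genes, and DESeq2 at an adjusted P called 2 lower and 0 higher, beside 9.79% and 8.31%. The groups did not overlap for Ptpro, lower in YHY, beside 9.28% of all genes lower and 6.83% higher in this way. The median log2 fold change was -0.30 for the 8 genes and 0.022 for all genes.

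In YHY against Ctrl, 3 of the 8 genes were called higher (Nphs1, Synpo and Wt1) and 1 lower (Podxl), beside 26.1% and 24.2% of all genes. An unadjusted P under 0.05 gave 4 of the 8 higher and 1 lower, beside 29.4% and 26.6% of all genes, and DESeq2 at an adjusted P gave 3 and 1, beside 23.2% and 20.1%. The groups did not overlap for Nphs1, higher, and Podxl, lower, beside 21.9% and 22.7% of all genes. The median log2 fold change was 0.33 for the 8 genes and 0.10 for all genes. With library size alone these medians were -0.13 and -0.33, only Nphs1 remained called higher, and 28.4% of all calls were higher against 51.9% with TMM. Upper-quartile scaling moved the median of all genes to 0.22. The comparisons share mice and are not independent.

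**Figure D2:**
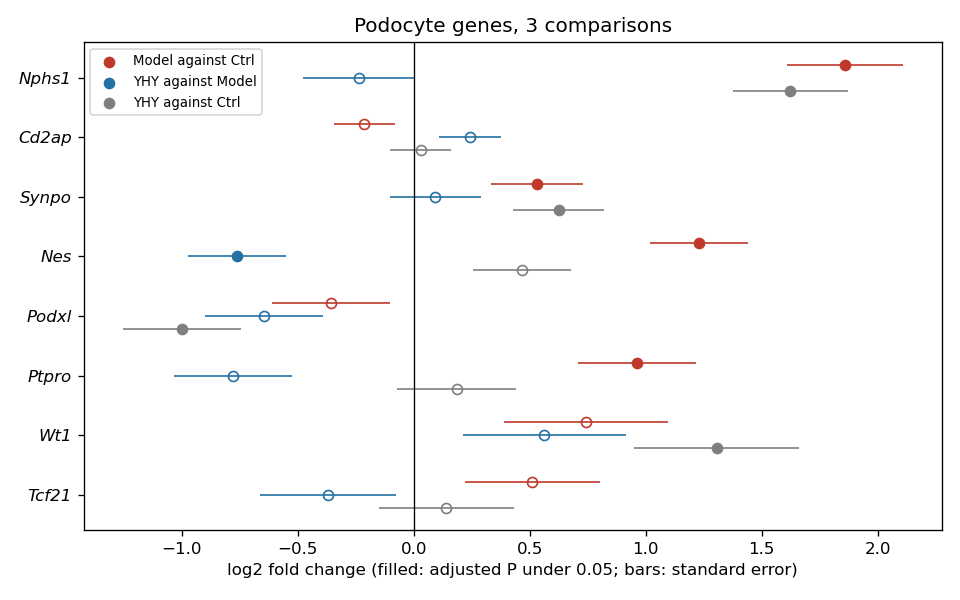
Log2 fold change of each podocyte gene in the 3 comparisons (x axis) with its standard error (bar), filled where the adjusted P is under 0.05. Nphs1 has the highest value in both comparisons with Ctrl, 1.86 and 1.62, and Podxl lies below 0 in each.

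Podxl and Nphs1 differed in their proportion to each other. The ratio of their CPM, which does not depend on how libraries are scaled, was 14.3, 9.81, 11.9 and 16.3 for Ctrl mice, 3.78, 2.10, 2.82 and 2.04 for Model mice and 3.55, 1.59, 1.96 and 1.99 for YHY mice. Every db/db mouse, Model 1 included, lay below every Ctrl mouse, and Model and YHY overlapped. The pair was chosen after its values were seen and has no test. Podxl is also active in endothelium, whose part in the ratio was not tested.

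**Figure D3:**
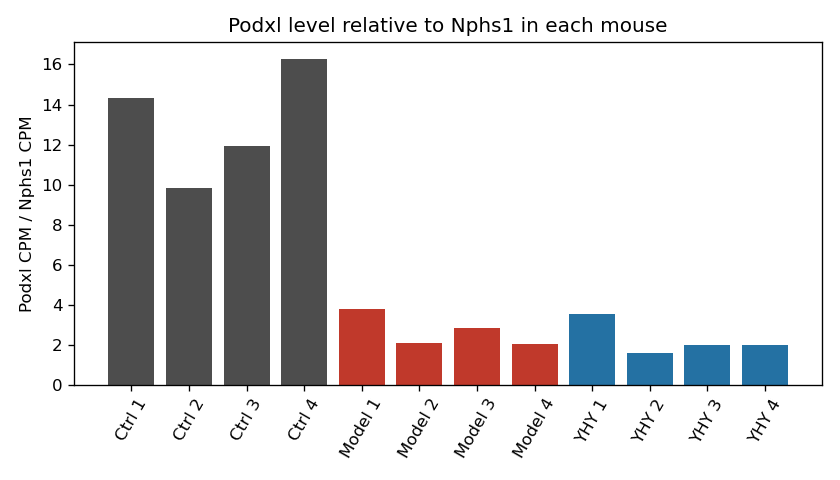
Ratio of Podxl CPM to Nphs1 CPM (y axis) in each mouse (bars). The Ctrl mice lie between 9.81 and 16.3 and the 8 db/db mice between 1.59 and 3.78.

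Within groups, several of the genes varied together from mouse to mouse. Deviations of log2 CPM from the group means had a Pearson r of 0.90 for Wt1 and Ptpro over the 12 mice (Spearman rho 0.90, r 0.84 without the 2 mice farthest from the median), 0.84 for Nphs1 and Wt1 (rho 0.87, then 0.86) and 0.83 for Nphs1 and Synpo (rho 0.78, then 0.66). With library size alone these were 0.86, 0.78 and 0.77. Cd2ap ran opposite to Nphs1, at -0.79 (rho -0.78, then -0.65), but this was -0.24 with library size alone. Model 1 lay above its group mean for 8 of the 8 genes, YHY 4 and Ctrl 3 for 7 and YHY 1 for 1. The mice share sequencing and scaling, and these values describe 28 pairs without a test.

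**Figure D4:**
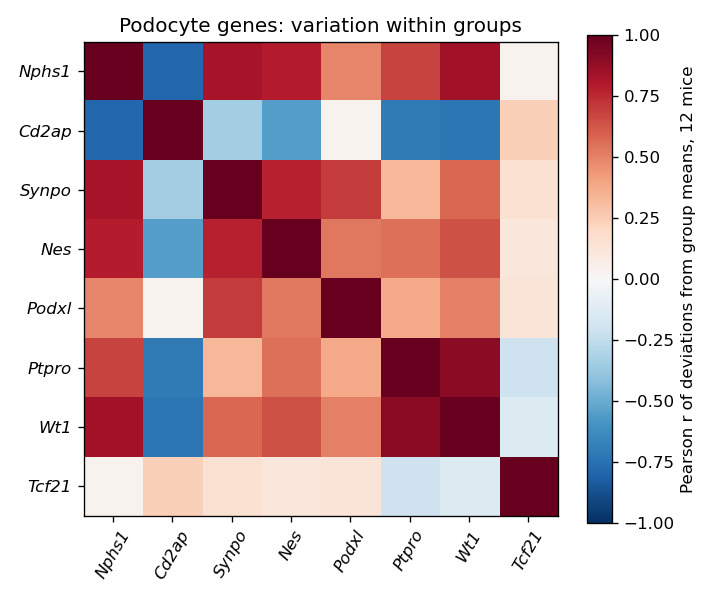
Pearson r between podocyte genes (both axes) of deviations of log2 CPM from the group means over 12 mice, in color from -1 to 1. Nphs1, Synpo, Nes, Podxl, Ptpro and Wt1 are positive with each other, and Cd2ap is negative with Nphs1 at -0.79, a value of -0.24 with library size alone.

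The genes most like the mean of the 8 in these deviations, of 12908 with a mean count of at least 50, were Atg12, Myl7, Aldh1a1, Cryz, Wwox, Tspan2, Ugt3a2, Trappc8, Lonp2 and Hao2. Pearson r over the 12 mice ran from 0.91 for Hao2 to 0.97 for Atg12, and from 0.855 to 0.981 with each mouse left out. These genes were picked for the highest r, and mice were left out in turn for them only. Their high values therefore follow from the choice and have no test. The values were not recomputed with library size alone. Between groups these genes differed in direction. Atg12, of the autophagy machinery, was lower in Model than in Ctrl, with a log2 fold change of -0.94 (adjusted P = 1.55e-04), and Myl7, a myosin light chain gene, was higher at 2.35 (adjusted P = 8.62e-05).

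The counts of the lists below stand beside 19.6% of all genes called higher and 18.5% lower in Model against Ctrl, or 8.87% and 32.5% with library size alone. For YHY against Model these shares were 5.63% and 7.62%, or 2.82% and 3.94% with library size alone. Bulk kidney RNA does not show which cells gave the reads of these lists, and podocytes are a small part of the tissue.

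Of the slit diaphragm and adaptor genes besides the 8, 16 of 17 were tested, and Model had 4 called higher and 3 lower relative to Ctrl, with a median log2 fold change of 0.39 beside 0.038 for all genes. Kirrel, which encodes a partner of nephrin, was higher at 0.97 (adjusted P = 9.18e-04). Magi1, a scaffold, was higher at 0.80 (adjusted P = 0.0167), but was not called without Ctrl 1, Ctrl 3 or Model 2. Ddn, dendrin, was higher at 1.14 (adjusted P = 0.0400), but was not called without Ctrl 1, Ctrl 2, Ctrl 4 or any 1 Model mouse. The nephrin adaptors Nck1 and Nck2 were lower, at -1.23 (adjusted P = 7.74e-04) and -0.73 (adjusted P = 0.00324). The number called higher was 1 without Ctrl 1 or Model 2 and 2 without Model 3 or Model 4. With library size alone 0 were higher and 4 lower, and the median was -0.043. In YHY against Model edgeR called Tjp1 higher at 0.56 (adjusted P = 0.0272) and 0 lower, with 2 lower at an unadjusted P under 0.05 and 0 by DESeq2. Tjp1 was not called with library size alone (adjusted P = 0.128), nor without Model 2, Model 3, Model 4, YHY 1 or YHY 2.

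Of the podocyte actin cytoskeleton genes, 17 of 19 were tested, and Model had 5 called higher and 2 lower relative to Ctrl, 5 of 17 and 2 of 17 beside 19.6% and 18.5% of all genes, with a median of -0.24. Nebl was higher at 0.999 (adjusted P = 0.0164) and Plekhh2 at 0.93 (adjusted P = 0.0179), and Arhgap24 was lower at -1.16 (adjusted P = 3.60e-04). Nebl was not called without Ctrl 1, Ctrl 4 or Model 3, nor Plekhh2 without Ctrl 1, Ctrl 4 or Model 2. The number called higher was 3 without Ctrl 1 or Ctrl 4, and the number called lower was 4 without Ctrl 2 or Model 1 and 5 with only the 8 mice compared. Clic5 was lower in Model than in Ctrl at -0.98 (adjusted P = 0.00121) and lower in YHY than in Model at -1.002 (adjusted P = 0.00538). With library size alone 0 were higher and 10 lower in Model, beside 8.87% and 32.5% of all genes. Of 12 podocyte transcription factor genes, 3 were called higher in Model and 2 were called lower, among them Lmx1b at 1.75 (adjusted P = 0.0341) and Zhx2 at -0.96 (adjusted P = 0.00193), with 0 and 5 by library size alone and 5 and 1 by upper-quartile scaling. Lmx1b was not called without Ctrl 1, Ctrl 3, Ctrl 4, Model 1 or Model 2. Leaving out 1 of these mice left 0 genes of the list called higher, or 1 without Ctrl 3, and 1 was lower without Ctrl 1, Model 3 or Model 4.

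Of 22 podocyte surface, secreted and other enriched genes, Model had 5 called higher and 5 lower relative to Ctrl, and 2 and 7 with library size alone. Without Ctrl 1 or Ctrl 3, 3 were higher. The cell cycle inhibitor gene Cdkn1c was higher at 1.53 (adjusted P = 7.85e-05), and the protease genes Htra1 and Mme were lower at -1.83 (adjusted P = 6.78e-05) and -1.43 (adjusted P = 1.05e-05). Whether their reads came from podocytes or from other kidney cells was not tested. In YHY against Model edgeR called 4 lower, among them Rab3b at -1.52 (adjusted P = 0.0137) and Bmp7 at -0.90 (adjusted P = 0.00177), and 0 higher, with 2 higher at an unadjusted P under 0.05 and 1 by DESeq2.

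Of 12 genes of the glomerular basement membrane, which podocytes and endothelium build together, 1 was higher in Model than in Ctrl, Lama5 at 1.32 (adjusted P = 2.45e-05), and 1 lower, Col4a3 at -0.73 (adjusted P = 0.00407). The number higher was 2 at an unadjusted P under 0.05, by DESeq2 or without Model 1, and 3 with upper-quartile scaling. Over 11 alternatives besides leaving out 1 mouse it ran from 1 to 3 and was kept in 4. With library size alone 2 were lower. In YHY against Model edgeR called 6 of the 12 higher and 0 lower, with 8 and 0 at an unadjusted P under 0.05, 7 and 0 by DESeq2, 3 and 0 with library size alone and 3 higher without Model 3. Agrn was higher there at 0.99 (adjusted P = 0.00213), Col4a3 at 0.79 (adjusted P = 0.00980) and Col4a5 at 0.72 (adjusted P = 0.00993), and the median was 0.60 beside 0.022 for all genes. Col4a5 was not called with library size alone (adjusted P = 0.0533). A list of 7 injury and senescence genes follows markers assayed in these mice or in cultured cells and is not an independent choice. Of its 6 tested genes, Cdkn1a (1.10), Vim (0.92) and Des (0.88) were called higher in Model than in Ctrl and Trp53 lower at -0.48 (adjusted P = 0.0460), and with library size alone 0 were higher. Cdkn1a was not called without Ctrl 2, Ctrl 3 or Model 4. Trp53 was not called without Ctrl 1, Ctrl 2, Ctrl 4, Model 2, Model 3, Model 4 or YHY 3, nor with upper-quartile scaling or when each mouse had to have 10 counts. In YHY against Model Trp53 was called higher at 0.70 (adjusted P = 0.0205), but not with library size alone or without Model 3 or Model 4, and 0 of the list were lower (0 at an unadjusted P under 0.05 and by DESeq2). In YHY against Ctrl edgeR called 4 of the 6 higher, among them Cdkn1a at 2.09 (adjusted P = 2.96e-04) and Vim at 1.14 (adjusted P = 3.20e-04), and 0 lower (0 at an unadjusted P under 0.05 and by DESeq2). Library size alone left 2 of these 4.

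In YHY against Ctrl, where 26.1% of all genes were higher and 24.2% lower, 8 of the 16 slit diaphragm genes were called higher and 4 lower, 4 and 6 of the actin genes, 1 and 1 of the transcription factors and 7 and 7 of the surface genes. Of the basement membrane genes edgeR called 8 higher and 0 lower, as at an unadjusted P under 0.05 and by DESeq2. By library size alone, where 13.6% and 34.3% of all genes were called, the numbers were 0 and 5, 2 and 10, 0 and 1, 2 and 7, and 5 and 0. Of the slit diaphragm genes 4 were higher without Ctrl 1 and 5 without Ctrl 2 or with only the 8 mice compared, and of the surface genes 4 without Ctrl 1 or Ctrl 3. DESeq2 called 2 of the transcription factors higher, as did edgeR without YHY 1 or by upper-quartile scaling.

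Markers of other cell types also differed between groups. Bulk kidney RNA does not show which cells gave their reads, nor whether endothelial reads came from glomeruli or other vessels. Of 14 endothelial markers, edgeR called 6 higher in Model and 0 lower, beside 19.6% and 18.5% of all genes. The numbers were the same at an unadjusted P under 0.05 and by DESeq2, but 1 was higher with library size alone. Their summed level was 577.4, 474.8, 576.2 and 603.6 CPM for Ctrl mice, 856.8, 774.8, 808.0 and 698.4 CPM for Model mice and 882.8, 643.1, 711.2 and 650.7 CPM for YHY mice. Eng had most CPM in each group, with means of 121.8 in Ctrl, 255.8 in Model and 181.0 in YHY, and was higher in Model at 1.07 (adjusted P = 2.70e-05). All db/db mice lay above all Ctrl mice in the sum, but without Eng Ctrl mice ran from 341.4 to 487.4 CPM and Model mice from 460.6 to 610.4 CPM, and the groups also overlapped with library size alone, where Ctrl mice ran from 513.5 to 811.4 and Model mice from 617.1 to 893.6. Of 13 markers of mesangium, pericytes and smooth muscle, 5 were higher and 0 lower (1 lower at an unadjusted P under 0.05, 0 by DESeq2). On library size alone the numbers were 2 higher and 3 lower, and 2 or 3 were higher without any 1 Ctrl mouse, Model 1, Model 2 or Model 3. Sums were 339.3, 354.0, 358.0 and 386.2 CPM in Ctrl mice, 415.7, 401.1, 373.2 and 311.2 CPM in Model mice and 409.5, 443.5, 354.1 and 332.7 CPM in YHY mice, Ren1 having most CPM in Ctrl and Model and Pdgfra in YHY. Of 8 parietal epithelial markers, 4 were higher and 0 lower (1 lower at an unadjusted P under 0.05, 0 by DESeq2), and 1 and 1 with library size alone. Sums were 129.6, 100.01, 117.2 and 148.6 CPM, 150.04, 183.8, 145.5 and 171.6 CPM, and 269.4, 188.2, 193.3 and 159.2 CPM in the same order of groups, Pax8 having most CPM in each group. Without Pax8 the groups overlapped, from 47.0 to 77.4 CPM in Ctrl mice, 62.6 to 85.3 CPM in Model mice and 56.1 to 147.6 CPM in YHY mice. The part of these markers in the results on podocyte genes was not tested.

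Of 12 proximal tubule markers, 1 was called higher in Model and 6 were called lower, and 0 and 7 with library size alone. Without Ctrl 3, Ctrl 4 or Model 1, 0 were called higher. Their sum was 48661 ± 16702 CPM in Ctrl mice, 9624 ± 1964 CPM in Model mice and 7375 ± 2944 CPM in YHY mice, mostly from Kap, and 6185, 4530 and 3350 CPM on average without Kap. Of 10 collecting duct markers, edgeR called 4 lower and 0 higher (0 higher at an unadjusted P under 0.05 and by DESeq2), with most CPM from Aqp2. The number lower was 3 by DESeq2 or upper-quartile scaling and 6 with library size alone. Of 9 markers of the loop of Henle and distal tubule 2 were higher and 4 lower, among them Umod at -2.86 (adjusted P = 5.43e-05). Umod had most CPM of these in Ctrl, with a mean of 920.9, and Slc12a1 in Model and YHY, with 758.4 and 1025. Without Model 2 or Model 3 the 4 became 2. The sum of 6 inner medullary markers, with most on average from Akr1b3 in Ctrl and YHY and Slc5a3 in Model, ran from 164.3 to 701.9 CPM among Ctrl mice, from 123.4 to 180.8 CPM among Model mice and from 123.9 to 646.6 CPM among YHY mice. In YHY mice Akr1b3 had 430.2, 24.2, 65.7 and 14.8 CPM and Slc5a3 112.2, 69.3, 183.5 and 123.5 CPM. Akr1b3 thus lay above Slc5a3 in YHY 1 only. Of 12 immune cell markers, 9 were tested and 1 was higher and 3 lower, with 2 higher without YHY 2 or YHY 4 or by upper-quartile scaling and 0 by library size alone. At an unadjusted P under 0.05, 2 were higher and 4 lower. Over 11 alternatives besides leaving out 1 mouse the number higher ran from 0 to 2 and was kept in 6. Most CPM came from Cd74 in Ctrl and Lyz2 in Model and YHY, and Cd3e, Cd3g and Ms4a1 were at 0 counts in at least 1 mouse. The part of these cells in the results on podocyte genes was not tested.

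**Figure D5:**
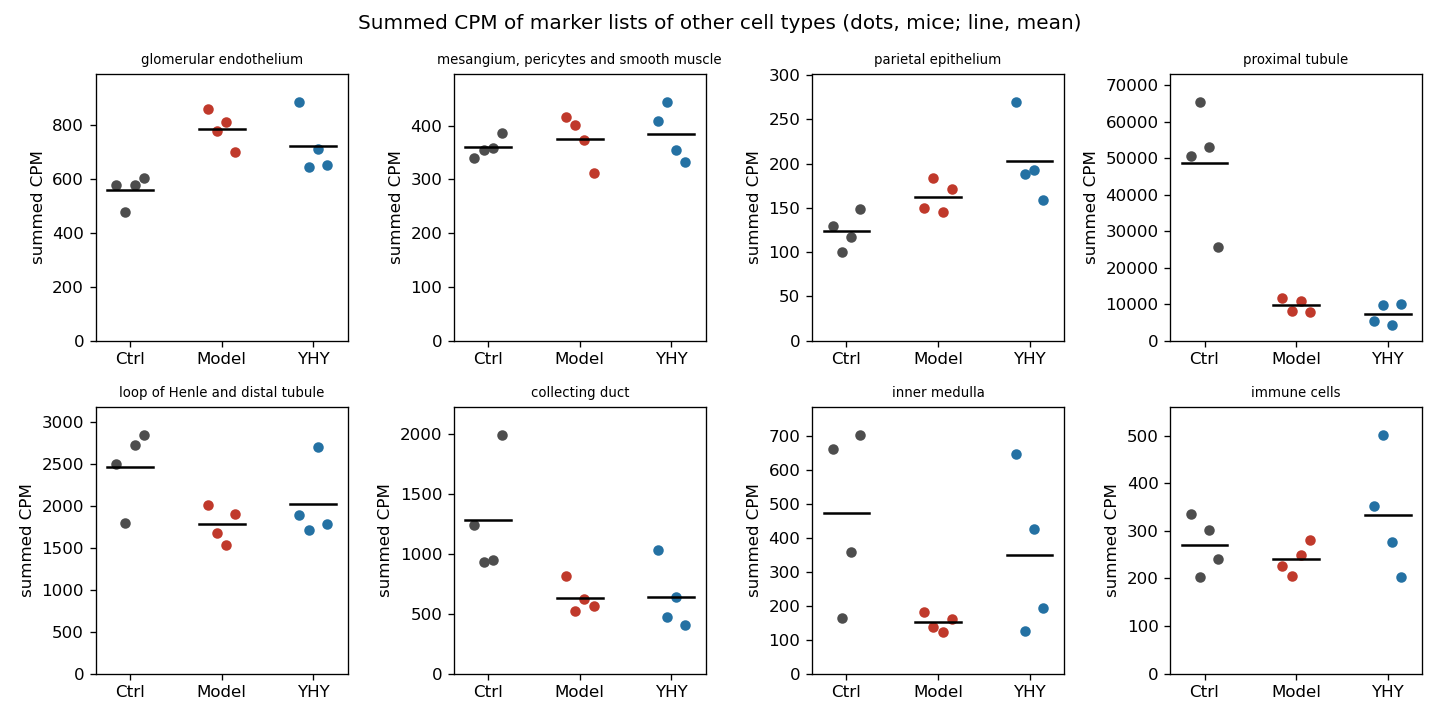
Summed CPM of marker lists of other cell types (y axis) in each mouse (dots) with the group mean (line). With TMM scaling endothelial sums are higher in all 8 db/db mice than in any Ctrl mouse, which does not hold with library size alone, and proximal tubule sums are lower.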

How the data were processed

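Poly(A) RNA of 12 mouse kidneys was sequenced, 4 each of Ctrl, Model and YHY. The authors deposited raw counts of reads per gene, for which the submitters' processing notes name Trimmomatic 0.39, HISAT2 2.2.1, SAMtools 1.12, featureCounts 2.0.1, DESeq2 1.34.0 and the build GRCm39. Use of strand is not given in the sources used here. Tables of comparisons by the authors hold a normalized signal, found here for 8 of the 12 mice to be proportional to the counts of the same mouse and used for that check only, and deposited log2 fold changes and p-values, which were not used. Count columns of the other 4 mice (Ctrl 2, Model 1, YHY 3 and YHY 4) were assigned by letter and number alone. Means in those tables cover 9 mice. A further 4 columns of values per mouse were not used.

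Counts were fitted with edgeR 4.0.16 in R 4.3.3 (TMM, filterByExpr leaving 17431 genes, quasi-likelihood test, 1 fit of 3 groups, Benjamini-Hochberg). The standard error (SE) is the absolute log2 fold change divided by the square root of F. FPKM used the deposited gene length, and log2 CPM for likeness a pseudocount of 0.5. The steps were tested on simulated counts. All pairs of libraries within a group differed beyond sampling noise. The genes named are the 8, up to 3 called genes per direction with the largest change and the gene of each list with the highest mean FPKM or CPM, of which examples are printed, and the 10 most alike. Some genes of the lists enter the counts, medians and sums but are not reported here. Members and lists were chosen with earlier results of these data known. Alternatives were other scalings, removal of mitochondrial transcripts, DESeq2 1.42.0, other filters, other sets of mice, a fold limit of 1.2 and a replicate block.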

Additional observations from a re-analysis of the deposited data

Results flagged for a closer look

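A mouse far from the other 3 of its group was looked for in 72 series, each of the 8 genes, their sum, each summed list and the mitochondrial share of counts in each group, by Dixon's 95% critical value for the gap to the nearest mouse over the whole range. Chance marks about 1 in 20 groups, and 5 of the 72 were marked. Cd2ap in Model 1 stood at 79.1 CPM beside 73.0 to 74.0 CPM for the rest of its group (gap over range 0.844). Nes in Ctrl 2 stood at 9.52 CPM beside 10.6 to 10.8 CPM (0.885). The sum of the podocyte transcription factor list in Model 1 stood at 204.0 CPM beside 165.4 to 171.2 CPM (0.849). The mitochondrial share in Ctrl 2 stood at 22.7% beside 18.4% to 18.6% (0.962), and in YHY 2 at 64.6% beside 53.8% to 54.6% (0.933).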

How the results depend on the processing

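The calls of Nphs1 (both comparisons with Ctrl), Nes in Model against Ctrl and Podxl in YHY against Ctrl held under every alternative tried. With scaling by library size alone, Model against Ctrl had 2 of the 8 genes higher and 2 lower (median 0.23; all genes 1547 higher, 5667 lower), YHY against Model had 491 and 686 of all genes, and YHY against Ctrl had 1 of the 8 higher (median -0.13) and 2365 of all genes higher. The share of calls that were higher in Model then was 21.4% against 51.5%, and 28.4% against 51.9% in YHY against Ctrl. That scaling also reversed values not called: Klf15 -0.076, Col4a1 -0.38 and Acta2 -0.29 in Model against Ctrl, Igfbp7 6.58e-04 and Plvap 2.49e-04 in YHY against Model, and Ptpro -0.28, Cd2ap -0.38, Tcf21 -0.26, Nes -0.0032, Klf15 -0.30 and Acta2 -0.22 in YHY against Ctrl. Upper-quartile scaling reversed Plvap (0.017 and 0.0079 against Ctrl). The 9 mice of the authors' means called 1 of the 8 genes lower in Model (Podxl), gave a median of 0.066 in YHY against Ctrl, and reversed Igfbp7 (0.22), Plvap (0.17) and Aqp2 (0.16) in YHY against Model and Cd2ap (-0.0144), Tcf21 (-0.16) and Klf15 (-0.0153) in YHY against Ctrl. In YHY against Model, the 8 mice fitted alone called 0 of the 8 genes and 692 of all genes lower and turned Igfbp7 (0.019) and Plvap (0.018), DESeq2 called 2 of the 8 lower, and no filter 3 (with Cd2ap at -0.00589 in YHY against Ctrl). A fold over 1.2 with an unadjusted P gave 3 of the 8, and 2429 and 2559 of all genes. With each mouse left out, Model against Ctrl had 0 to 1 of the 8 genes called lower (Podxl, without Model 1), and YHY against Model had 0 to 2, where all genes called were 419 to 1045 higher and 727 to 1678 lower, lowest without Model 3. Values not called that changed sign ranged, in Model against Ctrl, from -0.030 to 0.19 for Col4a1 and -0.044 to 0.19 for Acta2; in YHY against Model, from -0.20 to 0.087 for Igfbp7, -0.19 to 0.096 for Plvap, -0.062 to 0.25 for Synpo and -0.0056 to 0.13 for Acta2; and in YHY against Ctrl, from -0.00051 to 0.39 for Ptpro, -0.046 to 0.088 for Cd2ap, -0.11 to 0.42 for Tcf21, -0.0011 to 0.30 for Klf15 and -0.28 to 0.0060 for Plvap. The numbers of the mice do not pair them, since deviations of mice with the same number correlated between -0.17 and 0.12. With the replicate block Model against Ctrl had 4 of the 8 genes higher and 0 lower, YHY against Model 0 and 1 and YHY against Ctrl 3 and 1, and all genes had 3212 and 3077, 793 and 1127, and 4259 and 4165; the call of Synpo in Model was lost (0.54, adjusted P = 0.0690) and Tcf21 was called there (0.61, adjusted P = 0.0416). For these changes the cause was not tested. Low counts limit Lmx1b, with 6 counts in its lowest mouse, and 4 mice per group limit every test.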
